A study of Mus musculus with 2 samples.

Results

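The miR-23, miR-27 and miR-24 genes lie in mouse as 2 paralogous clusters, Mir23a, Mir27a and Mir24-2 on chromosome 8 and Mir23b, Mir27b and Mir24-1 on chromosome 13. Of these 6 genes, chosen by name, 5 have a row among the 1973 genes of the deposited tables, and Mir24-1 has none. MicroRNA sequencing was done on RNA below 30 nt from forebrain of B6NCrl mouse embryos at embryonic day 12.5, described as healthy. The single group had 2 biological replicates, pools of 120 embryos (replicate 1) and 68 embryos (replicate 2) of mixed sex, so no contrast between tissues, ages or treatments was part of the design. The comparisons made here are between the clusters within each library and between the libraries. The labels name no difference between the pools other than the number of embryos, and p-values between them compare 2 libraries, not conditions.

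Each cluster is cut from 1 primary transcript that carries a miR-23, a miR-27 and a miR-24 hairpin in that order. MicroRNAs pair with messenger RNAs mainly through the seed, bases 2 to 8 of the mature strand, so paralogues with 1 seed are taken to address overlapping sets of targets. The miR-23 and miR-27 miRNAs are known for roles in vessel growth, miR-27 also for lipid metabolism, miR-24 for restraint of the cell cycle and of cell death, and miR-23 has been described in astrocytes of the brain.

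The mature strands are shown because the sister genes of the clusters differ by so few of their letters. Sequences are from RefSeq (build GRCm38.p6), 5′ to 3′, with the seed in capitals. Those of the clusters lie on the plus strand, with miR-23a-3p at chr8:84208563-84208583, miR-27a-3p at chr8:84208727-84208747, miR-24-2-5p at chr8:84208839-84208860, miR-27b-3p at chr13:63300760-63300780 and miR-24-1-5p at chr13:63301213-63301235.
miR-23a-3p: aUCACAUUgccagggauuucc
longest run shared by the Mir23a and Mir23b hairpins: aaaUCACAUUgccagggauu
miR-27a-3p: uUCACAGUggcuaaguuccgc
miR-27b-3p: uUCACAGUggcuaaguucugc
miR-24-3p, from both Mir24-1 and Mir24-2: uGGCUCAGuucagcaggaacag
miR-24-2-5p: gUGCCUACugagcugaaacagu
miR-24-1-5p: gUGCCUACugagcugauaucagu
miR-128-3p, whose seed is shifted against that of miR-27: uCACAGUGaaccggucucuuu

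The miR-27 sisters differ by 1 base, C19U from miR-27a-3p to miR-27b-3p, counted from 1 at the 5′ end. Laid on the Mir23b hairpin, miR-23a-3p has 1 mismatch, U19A, also at base 19. A 3p read of either family that starts at base 1 and ends before base 19 therefore matches both clusters. The strand miR-24-3p occurs without a mismatch in both miR-24 hairpins, which share a run of 28 bases, against 20 bases for the miR-23 pair and 20 bases for the miR-27 pair. The other arms separate the loci better. The miR-24 5p arms have the same seed and an edit distance of 2, first differing at base 17. The 5p arms of miR-27a and miR-27b lie 5 edits apart and have different seeds, and so do those of miR-23a and miR-23b. The tables do not say which arm a read came from, nor how long it was. Reads that matched several places, 37.9% of all reads in each library, stand outside the gene counts.

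The chromosome 8 cluster is the more compact. On mm10 it runs from 84208518 to 84208921 on the plus strand, 404 bases, with 79 bases between the Mir23a and Mir27a hairpins and 56 bases between Mir27a and Mir24-2. In GENCODE M21 Mir23a (ENSMUSG00000065611.1) and Mir27a (ENSMUSG00000065444.1) overlap no other gene, and the last 2 bases of Mir24-2 (ENSMUSG00000065541.1) overlap an exon of the lincRNA Gm26532. The chromosome 13 cluster runs from 63300484 to 63301275, also on the plus strand, and takes 792 bases, with gaps of 154 and 423 bases. It lies inside 2010111I01Rik, the gene of aminopeptidase O, which is read in the same direction, and inside introns of Fancc, a Fanconi anaemia repair gene read in the other direction. Mir23b (ENSMUSG00000065599) is intronic in 2010111I01Rik, while Mir27b (ENSMUSG00000065475) and Mir24-1 (ENSMUSG00000105904) overlap UTR exons of that gene. The deposited counts are for version 1 of Mir23b and of Mir27b, whereas M21 holds version 2 of both. Positions, gaps, lengths and base content are those of M21. Whether version 1 had the same extents is not given in the sources used here. The hairpins of chromosome 13 are poorer in G and C, with 48.6% for Mir23b, 47.9% for Mir27b and 51.5% for Mir24-1 against 56.0% for Mir23a, 59.8% for Mir27a and 61.7% for Mir24-2. On the other strand Mir24-2 overlaps Mir3074-2 and Mir24-1 overlaps Mir3074-1.

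Replicate 1 had 4333194 gene-strand reads in miRNA genes and replicate 2 had 4397107, of 11104730 and 11154304 reads in all. Levels are counts per 1000000 of these gene-strand reads (CPM). In all, 403 of 1973 genes, or 20.4%, had at least 10 reads in both, and so did the 5 genes with a row. A count of 0 allows a level of 0.692 CPM in the first library and 0.682 CPM in the second, where such limits and all intervals cover counting error only. In bulk tissue fewer cells of a type and less RNA per cell cannot be told apart. Of 8 neural markers with a row 6 had at least 10 reads in both libraries. Mir92b was highest at 19620.0 ± 283.3 CPM (SD, n = 2), with Mir137 at 5207 ± 112.5, Mir153 at 2777 ± 745.1 and Mir9-3 at 713.5 ± 0.551 CPM. Mir9-2 and the neuronal Mir124a-1, Mir124a-2 and Mir124a-3 stood at 5.61, 1.95, 6.29 and 2.18 CPM. Both mature arms of Mir9-2 and of Mir9-3 are identical in another hairpin, and reads that matched several places are outside these counts. The levels of the miR-9 genes therefore cannot be read as those of the mature miR-9 strands. For the Mir124a genes, whose arms were not matched under these names, the loss of such reads was not tested. Between the libraries, a gene was called where Fisher's exact test, two-sided and Benjamini-Hochberg adjusted over 511 genes, gave an adjusted p under 0.05 and the CPM differed at least 2-fold. This applied to 2.74% of the genes tested, and 32.7% passed the adjusted p alone.

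The miR-23 genes were the abundant members of both clusters. Mir23b had 33226 reads in replicate 1 and 33306 in replicate 2, or 7668 and 7575 CPM, and was the gene of rank 30 at 7621 ± 65.9 CPM (SD, n = 2). Mir23a had 22783 and 26550 reads, or 5258 and 6038 CPM, and stood at rank 42 with 5648 ± 551.7 CPM. The lower Mir23b library lay above the higher Mir23a library, so the sisters did not overlap. Mir23b was 1.46-fold above Mir23a in replicate 1 and 1.25-fold in replicate 2, a log2 ratio of 0.44 ± 0.15 (SD, n = 2). Ratios and folds here and below are on the log2(CPM + 1) scale. The pair reached 13269 ± 485.8 CPM together. Mir23b made up 59.3% of it in replicate 1 (95% Wilson interval 58.9% to 59.7%) and 55.6% in replicate 2 (55.2% to 56.0%). These intervals do not overlap, so the balance between the sisters shifted by more than counting error from one pool to the other.

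The miR-27 genes were lower, and the sisters lay further apart. Mir27b had 3604 and 3435 reads, or 831.7 and 781.2 CPM, and held rank 114 at 806.5 ± 35.7 CPM (SD, n = 2). Mir27a had 597 and 531 reads, or 137.8 and 120.8 CPM, and held rank 218 at 129.3 ± 12.03 CPM. The log2 ratio of Mir27b to Mir27a was 2.59 in replicate 1 and 2.68 in replicate 2, or 2.63 ± 0.07, a 6.21-fold excess. The share of Mir27b in the pair was 85.8% (95% Wilson interval 84.7% to 86.8%) in replicate 1 and 86.6% (85.5% to 87.6%) in replicate 2. Here the intervals overlap, and the pair as a whole stood at 935.7 ± 47.8 CPM.

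A step down from miR-23 to miR-27 was seen within both clusters, and it was steeper on chromosome 8. Mir23a exceeded Mir27a 37.9-fold in replicate 1 and 49.6-fold in replicate 2. Mir23b exceeded Mir27b 9.21-fold and 9.68-fold. The log2 ratios were 5.44 ± 0.27 and 3.24 ± 0.05 (SD, n = 2), and their difference was 2.04 in replicate 1 and 2.36 in replicate 2, or 2.20 ± 0.22. The difference was larger than its SD, although an exact test over 2 pairs cannot give a two-sided p below 0.5. Hairpins differ in length, and whether counts of RNA below 30 nt scale with that length was not tested. The levels were also taken per 100 bases of hairpin, by M21 lengths. For Mir23b and Mir27b these belong to a later version of the gene than the one counted. The order was then the same, with 10299 ± 89.1 CPM per 100 bases for Mir23b and 7531 ± 735.7 for Mir23a. Mir27b stood at 1105 ± 48.9 on that scale, Mir27a at 148.6 ± 13.83 and Mir24-2 at 90.2 ± 7.39. The difference between the clusters in the log2 ratio of miR-23 to miR-27 was 2.44 ± 0.22 per 100 bases (SD, n = 2). How many miR-27 and miR-23 reads were lost to places that match both sisters was not tested.

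**Figure D1:**
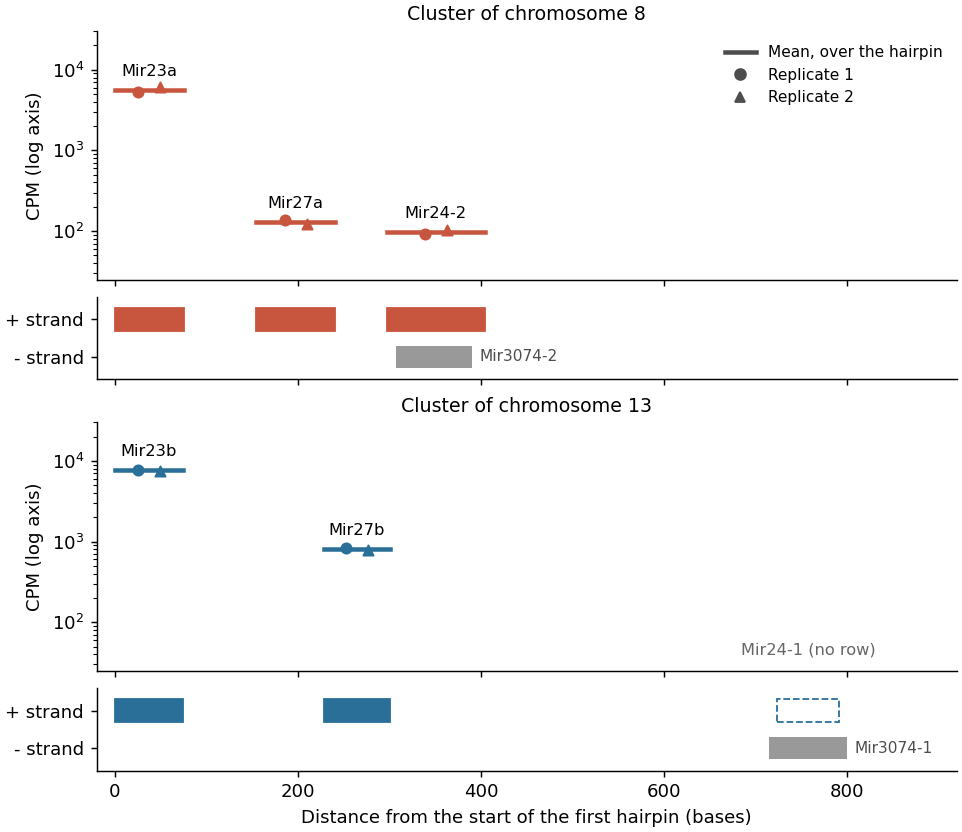
Levels along the chromosome 8 cluster (top) and the chromosome 13 cluster (bottom). In the upper panel of each cluster circles are replicate 1, triangles replicate 2 and bars their mean, in CPM on a log axis, and the strip below shows the hairpins of both strands by distance in bases from the first hairpin's start. Among the genes with a row the miR-23 gene is highest in both clusters, and Mir27b lies above Mir27a. Mir24-1, drawn dashed, has no row.

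The miR-24 genes could be read only in part. Mir24-2 had 394 reads in replicate 1 and 449 in replicate 2, or 90.9 and 102.1 CPM, and stood lowest of the 5 genes at rank 231 with 96.5 ± 7.91 CPM (SD, n = 2). Its libraries lay below those of Mir27a without overlap, yet the log2 ratio of Mir27a to Mir24-2 was 0.59 in replicate 1 and 0.24 in replicate 2, or 0.42 ± 0.25. By its mean this neighbouring pair is the least well separated of the 5 genes, close to the 0.44 ± 0.15 of Mir23b to Mir23a. In replicate 1 Mir23b and Mir23a lay closer, at a log2 ratio of 0.54. A read of the whole miR-24-3p strand fits both loci and could not be assigned to either by its letters, whereas the 5p arm of Mir24-2 is found in no other annotated hairpin. The level of Mir24-2 therefore cannot be read as that of miR-24-3p. The genes Mir6413, Mir6410, Mir6369 and Mir5124b also carry a mature strand with the miR-24-3p seed, and each had 0 reads in both libraries.

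At the Mir24-1 locus reads were counted under an overlapping gene, Mir3074-1. The row of Mir3074-1 (ENSMUSG00000092741) had 1469 reads in replicate 1 and 1557 in replicate 2 in the column of its own strand, and 80 and 93 reads in the column of the opposite strand. It is a minus-strand gene in M21. The tables hold version 1 of it and M21 version 2, and the strand of version 1 is not given in the sources used here. If it was the minus strand, the plus strand of Mir24-1 had 80 and 93 reads, or 16.9% (95% Wilson interval 13.8% to 20.5%) and 17.2% (14.2% to 20.6%) of the reads of Mir24-1 and Mir24-2 together. If it was the plus strand, Mir24-1 had 1469 and 1557 reads, and its share was 78.9% (76.9% to 80.6%) and 77.6% (75.7% to 79.4%). The replicates gave close shares under either reading, and the order of the miR-24 sisters turns between the readings. At the chromosome 8 locus, where the version is the same in both sources, the strand opposite to Mir24-2 had 4 reads in each library, or 1.01% and 0.883% of the reads there. Mir3074-2 has no row.

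Summed over the genes with a row, the chromosome 13 cluster stood above the chromosome 8 cluster in both libraries, although it has 2 rows against 3. The chromosome 13 sum was 8499.5 CPM in replicate 1 and 8356 CPM in the other, and the chromosome 8 sum 5486 and 6261 CPM. The ratio was 1.55-fold and 1.33-fold, a log2 ratio of 0.52 ± 0.15 (SD, n = 2). Most of each sum is miR-23: Mir23a supplied 95.8% and 96.4% of the chromosome 8 reads, and Mir23b 90.2% and 90.7% of those of chromosome 13. The comparison of sums is thus close to that of Mir23b with Mir23a. The share of miR-24 in a cluster cannot be read from these sums. Mir24-1 has no row, and a read of the whole miR-24-3p strand could not be assigned to either locus by its letters. The 5 genes held 1.43% ± 0.0446 of assigned reads.

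Other sister genes gave a scale for these differences, from a list of genes at more than 1 locus with near-identical or identical mature strands. Among 6 pairs of single genes without an identical arm, the mean log2 ratio of Mir27b to Mir27a was the highest at 2.63 and that of Mir23b to Mir23a the second lowest at 0.44. Mir99a over Mir100 gave 2.48 ± 0.17 (SD, n = 2), Mir101b over Mir101a 2.21 ± 0.59, Mir15a over Mir15b 1.64 ± 0.02 and Mir29c over Mir29a 0.34 ± 0.03. The order was not the same in each library. In replicate 1 Mir99a over Mir100, at 2.60, lay above Mir27b over Mir27a, at 2.59. In replicate 2 Mir23b over Mir23a, at 0.33, lay below Mir29c over Mir29a, at 0.36. The values of Mir27b over Mir27a, Mir99a over Mir100 and Mir101b over Mir101a lie within their spread of each other. The listed Mir92a-1 and Mir92a-2 have rows as Mir92-1 and Mir92-2, at 7027 and 512.9 CPM, and were left out of the classes below. The other 32 of 34 genes were found by their listed names. The 10 whose mature arms occur in no other hairpin had a median of 2211 CPM, from 149.9 CPM for Mir29a to 126269 CPM for Mir99a, and 7 of them reached 1000 CPM. The 22 with at least 1 arm identical in another hairpin had a median of 69.1 CPM, from 2.28 CPM for Mir29b-1 to 4223 CPM for Mir181b-2, and 5 of them reached 1000 CPM. Mir24-2, which belongs with the latter by its 3p arm, stood at 96.5 CPM, near their median. How far unassigned reads set this gap was not tested. Mir92-1 and Mir92-2 were not placed in either class, and Mir92-1, at 7027 CPM, lies above the highest of the 22.

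**Figure D2:**
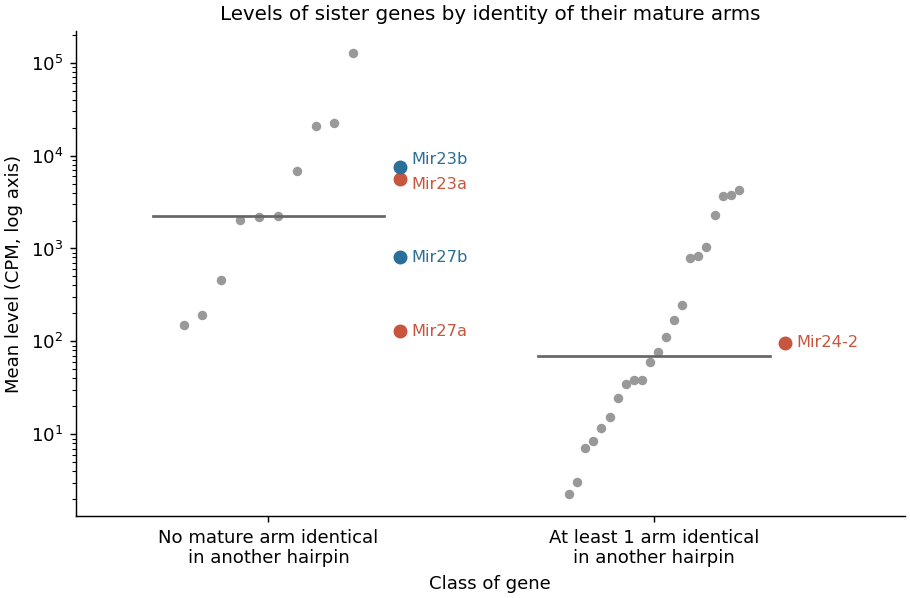
Mean levels, in CPM on a log axis, of sister genes without (left) and with (right) a mature arm that is identical in another hairpin, as grey points with their median as a line. The points are the 32 genes found by their listed names, without Mir92-1 and Mir92-2. The coloured points are Mir23a, Mir27a and Mir24-2 of chromosome 8 in red and Mir23b and Mir27b of chromosome 13 in blue, and Mir24-2 at 96.5 CPM lies near the right-hand median of 69.1 CPM.

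By seed, miR-128 is a shifted relative of miR-27. Its 3p strand shares the 8 bases UCACAGUG with miR-27a-3p, starting at base 1 in miR-128 and at base 2 in miR-27, so the seeds are offset by 1 base. Mir128-1, a brain miRNA gene, stood at 247.4 ± 19.0 CPM (SD, n = 2) and Mir128-2 at 169.5 ± 6.99 CPM, both above Mir27a and below Mir27b. Their 3p strands are identical, so these levels have the limit described for miR-24. Between the libraries Mir128-1 had a log2 ratio of 0.16 and Mir128-2 of 0.08, with adjusted p of 0.0366 and 0.441 by Fisher's exact test.

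The levels nearest to each gene, by Euclidean distance over log2(CPM + 1) of the 2 libraries, belonged to genes of varied kinds. Mir143, a smooth muscle and mural cell miRNA, lay nearest to Mir23a at 5873 ± 868.4 CPM (SD, n = 2), a distance of 0.10, with Mir652 next at 0.13. Mir431 and Mir135b lay nearest to Mir23b at 0.10 and 0.12. Mir16-2 and Mir210 lay nearest to Mir27b at 0.06 and 0.13, Mir33 and Mirlet7c-1 to Mir27a at 0.08 and 0.12, and Mir31 and Mir302c to Mir24-2, each at 0.09. With 2 libraries of 1 tissue this likeness is one of level alone.

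Between the pools the 5 genes differed by less than 2-fold. By Fisher's exact test none was called, against 14 of 511 genes, 2 passed the adjusted p without the fold minimum, against 167 of 511 genes, or 32.7%, and 3 had an unadjusted p under 0.05 in it, against 204 of 511 genes. Mir23a was higher in replicate 2, with a log2 ratio of 0.20 and an adjusted p of 3.66e-52 by Fisher's exact test. Mir27b was lower in replicate 2, with a log2 ratio of -0.09 and an adjusted p of 0.0281 by the same exact test. The other log2 ratios were -0.19 for Mir27a, 0.17 for Mir24-2 and -0.02 for Mir23b. On chromosome 8 Mir23a and Mir24-2 lay above 0 and Mir27a below it, while both genes of chromosome 13 lay below 0, Mir23b only just. Of the 321 genes of at least 10 CPM, 188 lay above 0. Mir27a, Mir24-2 and Mir23b did not pass the adjusted p here. The median absolute log2 ratio of the 321 genes of at least 10 CPM was 0.15, and 62.9% of them had a smaller one than Mir23a and 6.54% a smaller one than Mir23b. The median log2 ratio of the 5 was -0.02, against 0.04 over the 511 genes tested. The common coefficient of variation between the libraries by edgeR was 16.4% over 403 genes, wider than the 9.77% of Mir23a. With edgeR's TMM scaling Mir27a, at a log2 ratio of -0.23, and Mir23b, at -0.06, also passed Fisher's exact test, with adjusted p of 0.0224 and 2.99e-07. How many of all genes passed the adjusted p alone with that scaling is not given here, so these passes have no background. With the 2-fold minimum 13 of 511 genes were called under TMM, and 0 members.

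**Figure D3:**
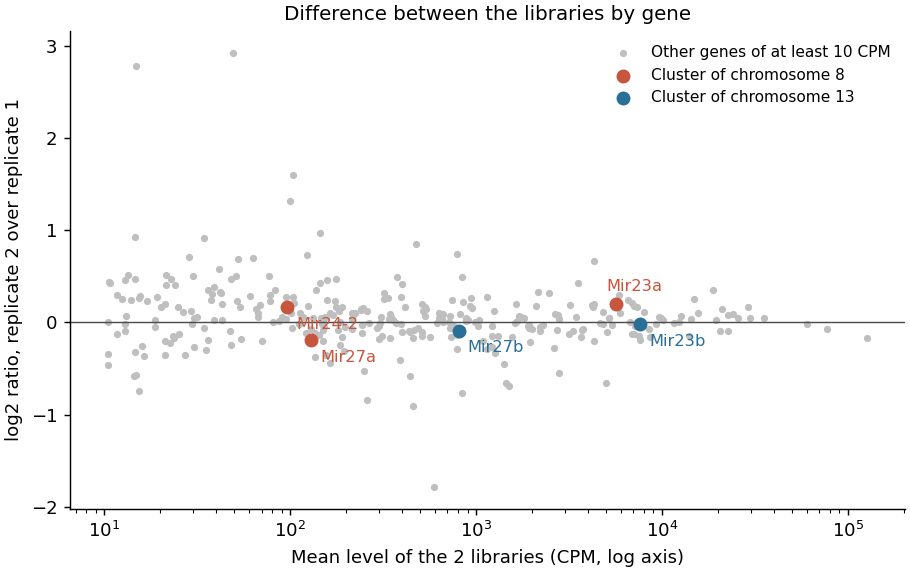
Log2 ratio of replicate 2 over replicate 1 against the mean level in CPM (log axis) for the 321 genes of at least 10 CPM, 1 point a gene. The members of the chromosome 8 cluster, in red, and of the chromosome 13 cluster, in blue, lie between -0.19 and 0.20, inside the band of the other genes in grey.

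The vascular list was read because miR-23 and miR-27 are known in vessels. Of its 8 genes 7 have a row, and 6 of these passed the adjusted p of Fisher's exact test upwards and none downwards, against 103 and 64 of all 511 genes tested. None of the 7 was called, and Mir151, with a log2 ratio of 0.01, did not pass. The median log2 ratio of the 7 was 0.30, against 0.04 over all genes tested. Mir126a, which marks endothelial cells and was the 1 endothelial marker with a row, went from 16564 CPM in the first library to 21179.8 CPM in the second. Of the 6 mural and mesenchymal markers 5 passed upwards, none was called, and their sum went from 12983 to 15695 CPM. These lists share Mir143, Mir145a and Mir126a. Mir23a was higher in replicate 2, as were the genes of these lists that passed, and Mir27b lower, and the part of vessel cells in the Mir23a difference was not tested. The astrocyte and maturation list, read because of miR-23's known place in astrocytes, had 1 of 6 genes higher and 1 lower, and a median log2 ratio of 0.05. The sister list had 5 of 32 genes higher and 10 lower, with none called and a median of -0.0024. Neural markers had 2 of 8 higher and 1 lower, and sums of 28579.8 and 28088 CPM. Epithelial markers had 2 of 7 higher and 5 lower, 1 of them called, and summed to 13628 and 10008 CPM. Blood markers had 2 of 5 higher and 1 lower, with 690.5 CPM in either library. Skeletal and heart muscle markers summed to 28.2 and 48.9 CPM, with 1 of 3 tested genes higher, and called, and Mir133a-1 and Mir133a-2 at 0. How many reads of the Mir133a genes matched several places, and so stayed outside the counts, was not tested.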

How the data were processed

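The authors deposited raw read counts per miRNA gene, made on mm10 with annotation M4 per the notes in the deposit. Aligner, counter and trimming: not given in the sources used here. Deposited tables hold 1 count column for both strands, 1 for the gene strand and 1 for the opposite strand, told apart by their values, and the gene strand was used. The first 4 rows name no gene, held 61.0% and 60.6% of reads (unmapped, multiply matching and unassigned) and stayed out of library sizes and tests. Genes were named by Ensembl ID without version from GENCODE M21, of the same build, with 1894 of 1973 matched. The hairpins of all 6 genes matched RefSeq in position and letters, and 11 entries for their mature strands were in the RefSeq table. Arms were matched to M21 hairpins only, not to the genome.

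The genes, the lists and the tests were chosen with earlier results of these data known. Named were the 6 genes, miRNA genes within 10 kb, genes sharing a 3p seed, the 2 genes nearest in level and members of the sister, vascular, astrocyte, miR-128 and cell-marker lists. A quasi-likelihood contrast needs groups and could not be fitted, so libraries were compared by Fisher's exact test on each gene whose summed reads reached 10. That test was tried on data simulated with counting error only. The trial therefore cannot show how the test behaves with the further spread between these pools. Ratios use log2(CPM + 1). Tools were edgeR 4.0.16 and DESeq2 1.42.0 in R 4.3.3, and Python 3.11.15 with SciPy 1.17.1.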

Additional observations from a re-analysis of the deposited data

Results flagged for a closer look

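Reads outside those of the 5 genes' own strand exceeded what a count of 0 allows. The opposite strand of Mir24-2 had 4 reads in replicate 1 and 4 in replicate 2. In the row of Mir3074-1, which overlaps Mir24-1, there were 1469 and 1557 reads in the column of its own strand and 80 and 93 in that of the opposite strand. There are no control samples to set these against.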

How the results depend on the processing

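The ratio of the chromosome 13 sum to the chromosome 8 sum moved by less than its SD under the 6 alternatives that keep both replicates: the both-strand column, pseudocounts of 0.1 and 10, counts per 100 bases of hairpin, and the reads of either column of Mir3074-1 credited to Mir24-1. The last of these, the column of its own strand, was added after the data were seen. Leaving out either replicate, which with 2 libraries returns the other's value, gave log2 ratios of 0.42 to 0.63, miR-23 shares of 55.6% to 59.3% and miR-27 shares of 85.8% to 86.6%. No miRNA gene lies opposite to the miR-23 or miR-27 genes, so no read was credited to them. Per 100 bases of hairpin the share of Mir27b in the miR-27 pair was 88.2%, against 86.2% ± 0.581 per gene. Without a fold minimum 2 members passed between the libraries, and with 1.5-fold none did. The members detected stayed at 5 with minimum reads of 1 and 50, and came to 6 with either column of Mir3074-1 credited. The share of Mir24-1 has no main value and was not recomputed beyond its 2 readings. Of 25 levels of single members recomputed with both replicates 14 stayed within the SD, and of 35 replicate ratios 28 kept their direction and side of the threshold and none turned. With DESeq2 size factors, TMM, or without the most abundant gene, Mir27a and Mir23b also passed the adjusted p of Fisher's exact test. Mir27b, at an adjusted p of 0.0781 by that test, lost it when all reads of the library were the scale. The share of all genes that passed the adjusted p alone on these scales is not given here.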
